A study of Mus musculus with 18 samples.

Results

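The lysosomal gene set examined here holds 38 genes, chosen by a fixed list of names: 10 proteases, 9 glycosidases, 6 genes of lipid breakdown and sterol export, 7 genes of membrane proteins and a channel, 2 subunits of the proton pump, progranulin, and the 3 transcription factors Tfeb, Tfe3 and Mitf. All 38 were among the 22485 genes that the arrays measured, and none of them was at exactly 0 on any array once its probes were averaged. Gaa and Fuca1 each had 1 of their 2 probes at exactly 0 on 1 array. Expression was measured in mouse bone marrow derived macrophages on 18 arrays with 2 dyes, and on each array 1 sample (Cy5) was set against RNA of untreated macrophages (Cy3). Mice of 8 to 10 weeks gave the marrow, and all groups shared 7 days of culture with 10 ng/ml M-CSF, the growth factor of macrophages. The Nrf2+/+ (wild-type) groups had albumin without heme for 4 h (n = 3), LPS for 4 h (n = 3), or 200 µM heme-albumin for 4 h followed by LPS for 4 h (n = 3). The Nrf2-/- (knockout) groups had the LPS treatment (n = 4) or the heme-albumin and LPS treatment (n = 5). LPS, the endotoxin of Gram-negative bacteria, was given at 10 ng/ml. Nrf2 is the transcription factor of the response to oxidants and electrophiles, encoded by Nfe2l2. The knockout had no group without LPS, no albumin is named in the labels for LPS alone, and the sources used here do not give the genotype of the reference RNA.

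Lysosomes are acidic organelles in which hydrolases break down protein, sugar chains and lipid, and macrophages use them to digest what they engulf, red blood cells and their hemoglobin included. A proton pump, the V-ATPase, acidifies the lumen, membrane glycoproteins shield and organise the limiting membrane, and exporters return the products to the cytosol. TFEB, TFE3 and MITF are related transcription factors that bind E-box sequences in the promoters of many lysosomal and autophagy genes. Their activity is known to depend on where the proteins are in the cell as well as on their amount, and mRNA levels show only the amount of message.

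To show the sequence these factors read, the promoters of the gene set were searched for the E-box CACGTG and for its longer palindrome TCACGTGA, in the 300 bases from 250 before to 50 after each annotated start. Both motifs read the same on both strands, and every TCACGTGA also holds a CACGTG. Of the 38 genes 32 had a window in the RefSeq promoter table (build GRCm38.p6). CACGTG was present in 10 of the 32 (31.2%), against 8.09% of all 27025 genes with a window. TCACGTGA was present in 4 of the 32 (12.5%), against 1.12% of all genes. Counted by window, 25.6% of those of the gene set and 7.15% of all 32851 windows held CACGTG, and 10.3% and 0.974% held TCACGTGA. Of 96 other lysosomal, autophagy and nutrient sensing genes, 79 had a window. CACGTG was present in 21 of these (26.6%) and TCACGTGA in 10 (12.7%), shares close to those of the set. In the set CACGTG was held by the proteases Ctsa, Ctsd, Ctsf and Ctsl and the glycosidases Gla, Glb1, Naglu and Gaa. The membrane protein genes Lamp1 and Mcoln1 held it also. None of the 3 TFE factor genes held it in these windows. A match describes the letters only. The stretches below are those of the 4 genes with the long motif, of Lamp1, which had the most matches, and of Gaa, Ctsl and Naglu, whose expression differed between groups. Each is written 5′ to 3′ in the direction of its gene, with the E-box in capitals.
Ctsa, chr2:164833740-164833787, plus strand: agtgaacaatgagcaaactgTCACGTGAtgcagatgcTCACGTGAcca
Ctsd, chr7:142387899-142388077, minus strand: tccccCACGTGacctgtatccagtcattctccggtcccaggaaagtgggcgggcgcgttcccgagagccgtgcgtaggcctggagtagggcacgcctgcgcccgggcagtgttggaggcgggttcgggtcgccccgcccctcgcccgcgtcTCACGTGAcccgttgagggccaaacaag
Gla, chrX:134601173-134601253, minus strand: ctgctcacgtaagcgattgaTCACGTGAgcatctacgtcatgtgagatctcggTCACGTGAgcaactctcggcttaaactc
Mcoln1, chr8:3500428-3500500, plus strand: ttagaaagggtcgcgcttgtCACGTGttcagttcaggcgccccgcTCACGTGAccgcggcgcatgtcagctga
Lamp1, chr8:13159080-13159171, plus strand: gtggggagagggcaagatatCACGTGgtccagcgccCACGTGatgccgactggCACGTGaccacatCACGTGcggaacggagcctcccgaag
Gaa, chr11:119267803-119267848, plus strand: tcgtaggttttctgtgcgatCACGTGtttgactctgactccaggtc
Ctsl, chr13:64370731-64370770, minus strand: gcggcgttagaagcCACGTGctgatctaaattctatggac
Naglu, chr11:101070001-101070046, plus strand: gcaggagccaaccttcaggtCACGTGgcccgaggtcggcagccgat
Ctsa and Gla carried the long motif at 2 places each, and Lamp1 carried CACGTG at 4 places, from position -61 to position -15 relative to its start.

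All values below are log2 ratios of the sample over the untreated reference, averaged over the probes of a gene. Differences between groups are differences of mean log2 ratio. Their standard errors (SE) and p-values come from a limma fit over all 18 arrays, with p adjusted over all 22485 genes. A gene is called where this p is under 0.05. With 3 to 5 arrays per group the number of arrays limits the precision. All 9 knockout arrays listed Nfe2l2, the targeted gene, at exactly 0, but so did 2 of the 3 wild-type albumin arrays, so a 0 alone does not mark the genotype. The third albumin array was at -0.22, and the 6 LPS-treated wild-type arrays lay between -0.59 and 1.0. A ratio gives no absolute level, so the macrophage identity of the cells could be followed only as differences, which are given at the end.

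The arrays of a group were not equally close. The 3 albumin arrays lay far nearer to each other than those of any other group, with a median SD over the 38 genes of 0.026, against 0.471 and 0.284 under heme and LPS (wild type and knockout) and 0.209 and 0.203 under LPS. Gusb, measured by 10 features, shows the scale: its mean differed between the albumin arrays with an SD of 0.013, and between the arrays of wild type under heme and LPS with an SD of 0.598, while the features on 1 array scattered with an SD of 0.015 to 0.056. The design text calls the replicates independent, and no albumin array repeated the nonzero values of another. Because such closeness is unlike that of the other groups, each comparison with albumin was also fitted with these 3 arrays averaged to 1 sample. That alternative was chosen after seeing the data. The main fit takes 1 spread per gene from all groups together. The close albumin arrays therefore also tend to lower the standard errors of comparisons without albumin, which were not refitted in this way. Fitting only the groups compared leaves the albumin arrays out, and fewer genes were then called for heme in wild type. It also leaves fewer arrays to estimate the spread, so the 2 reasons cannot be told apart. Arrays lettered a differed as well. Wild-type array a under heme and LPS had a median of -1.05 over the 38 genes, against -0.30 and -0.33 on arrays b and c, and was the lowest of its group in 33 of the 38 genes, as it was in 46.5% of the 11146 genes at 0 on no array. Knockout array a under heme and LPS had a median of -0.81, against -0.58 to -0.28 on the other 4, and was the lowest of its group in 23 of 38 (31% of those genes). Wild-type array a under LPS was the lowest in 29 of 38 (43.6%). Its median was -0.55, against -0.28 and -0.15.

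**Figure D1:**
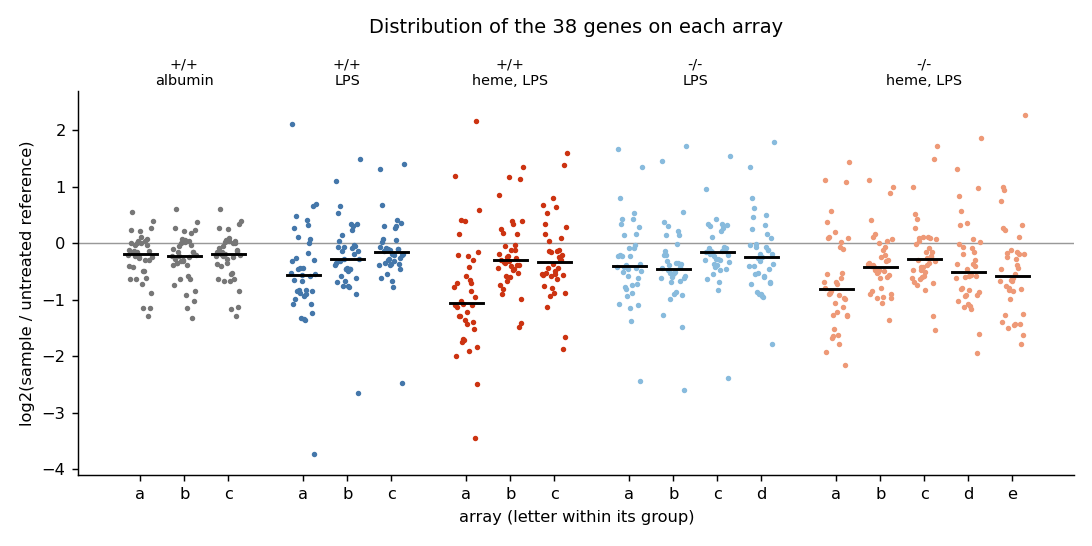
Log2 ratio to the untreated reference (vertical axis) of the 38 genes, 1 point per gene, on each of the 18 arrays (horizontal axis, arranged by group), with the median as a bar. The median of wild-type array a under heme and LPS, -1.05, is the lowest of the 18, and the 3 albumin arrays have medians of -0.18 to -0.22.

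**Figure D2:**
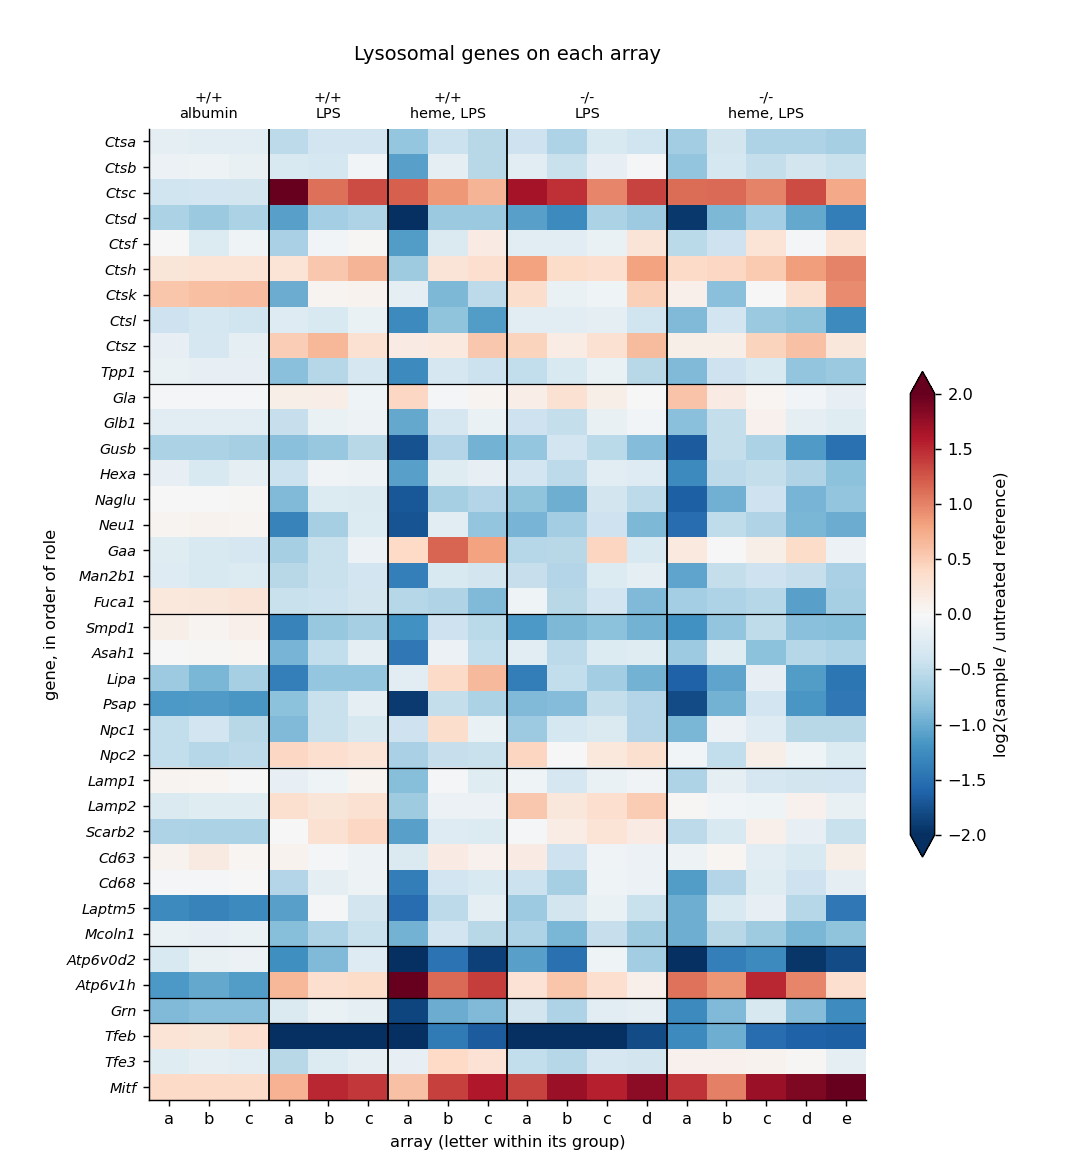
Log2 ratio to the untreated reference (colour, which saturates at -2 and 2) of the 38 genes (rows, in order of role) on the 18 arrays (columns, by group). Tfeb is below the reference on every LPS-treated array and above it under albumin, Ctsc and Atp6v1h are the reverse, and the columns lettered a under heme and LPS are bluer than their neighbours for most genes.

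Wild-type LPS arrays were first set against the albumin arrays, to see the effect of LPS on these genes in the absence of heme. As the labels name no albumin for LPS alone, LPS and a lack of albumin cannot be told apart here. LPS lowered the message of Tfeb 9.46-fold and lowered Smpd1, the acid sphingomyelinase, and raised Ctsc, which encodes the protease that activates the granule enzymes of leukocytes, 3.71-fold and Atp6v1h, a subunit of the proton pump, 2.93-fold. In all, 6 of the 38 genes rose and 4 fell, while 12.3% of all genes rose and 16.3% fell. Among the 11146 genes at 0 on no array, as all 38 were, these shares were 19.8% and 29.1%. The set's 6 of 38 higher lie between both shares for higher genes, and its 4 of 38 lower lie under both shares for lower genes. The median difference was -0.11 over the set, 0.00 over all genes and -0.16 over the genes at 0 on no array. With the albumin arrays as 1 sample, 3 of the set rose (Ctsc, Npc2 and Atp6v1h) and 1 fell (Tfeb), while 6.68% of all genes rose and 7.58% fell.

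Wild-type arrays with heme before LPS were next set against those with LPS alone, to see what prior heme changed. The labels name no pretreatment and no albumin for LPS alone. Heme, its albumin and the 4 h before LPS therefore cannot be told apart, and heme in the results stands for that whole treatment. Heme raised Lipa, the lysosomal acid lipase, Gaa, the acid glucosidase that degrades glycogen, Atp6v1h, Tfeb and Tfe3. It lowered Atp6v0d2, a pump subunit, Grn, the progranulin gene, Npc2, Ctsl, Scarb2 and Lamp2. The set thus had 5 genes higher and 6 lower of 38, against 8.34% higher and 6.35% lower among all genes, and 15.7% higher and 12% lower among the genes at 0 on no array. The 5 higher lie between the shares for higher genes, and the 6 lower lie above both shares for lower genes. The median difference of the set was -0.25, with 28 of 38 estimates below 0 (73.7%), against a median of 0.01 with 49% below 0 over the genes at 0 on no array, and 44.4% below 0 over all genes. Without the a arrays of all LPS-treated groups the set's median was -0.11, with 25 of 38 below 0, against 0.04 with 46.5% below 0 over the genes at 0 on no array. When only the 6 arrays of these groups entered the fit, 2 calls remained, Ctsl (adjusted p = 0.0428) and Npc2 (0.0125). With those a arrays left out, 4 rose (Gaa, Lipa, Tfeb and Tfe3) and 3 fell (Npc2, Lamp2 and Scarb2), and without wild-type array c under heme and LPS 2 rose and 5 fell.

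Setting the wild-type heme and LPS arrays against the albumin arrays reuses arrays of both comparisons above and gives the sum of the 2 steps. Relative to albumin 6 genes stood higher and 9 lower, against 12.9% higher and 14.4% lower among all genes and 19.8% and 25.6% among the genes at 0 on no array, with a median of -0.33. Both counts of the set lie between these shares. The higher genes were Atp6v1h, Ctsc, Gaa (1.09 ± 0.25), Lipa (1.04 ± 0.34), Ctsz (0.53 ± 0.15) and Tfe3 (0.39 ± 0.13). The lower genes were Tfeb, Atp6v0d2, Ctsk, Naglu, Fuca1, Smpd1, Ctsl, Mcoln1 and Ctsa. With the albumin arrays as 1 sample 4 calls remained, with Atp6v1h and Ctsc higher and Tfeb and Fuca1 lower. Of all genes 6.23% were then higher and 6.19% lower. Without albumin array b 9 genes were called, and with only the groups compared also 9.

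In the knockout, heme and LPS against LPS gave 1 gene higher, Tfe3, and 3 lower, Ctsl, Lamp2 and Npc2, of 38, against 4.10% higher and 2.67% lower among all genes and 7.92% and 4.83% among the genes at 0 on no array. The 1 higher lies under both shares and the 3 lower above both. All 4 were also called in wild type, in the same direction. The median was -0.21, with 29 of 38 estimates below 0 (76.3%), against 0.01 with 48.6% below 0 over the genes at 0 on no array. Without the a arrays it was -0.14, with 26 of 38 below 0, against 0.02 with 47.6% below 0. Knockout arrays of the same letter deviated together from their group means (Pearson r = 0.59, 0.23, 0.22 and 0.45 over all genes for letters a to d). Crossed pairs were closer for b and c, at 0.36 for heme array b with LPS array c and 0.32 for heme array c with LPS array b. Heme array e, which has no LPS array of its letter, gave 0.33 with LPS array d. The letter thus marks the closest pairs for a and d only. With the letter as a block 2 genes were higher, Tfe3 (adjusted p = 0.0123) and Atp6v1h (0.0334), and 1 lower, Ctsl (0.0203). No gene was called without knockout array a under LPS, and 2 were called without array b or array c of that group, without array d under heme and LPS, or with only the 2 groups in the fit.

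**Figure D3:**
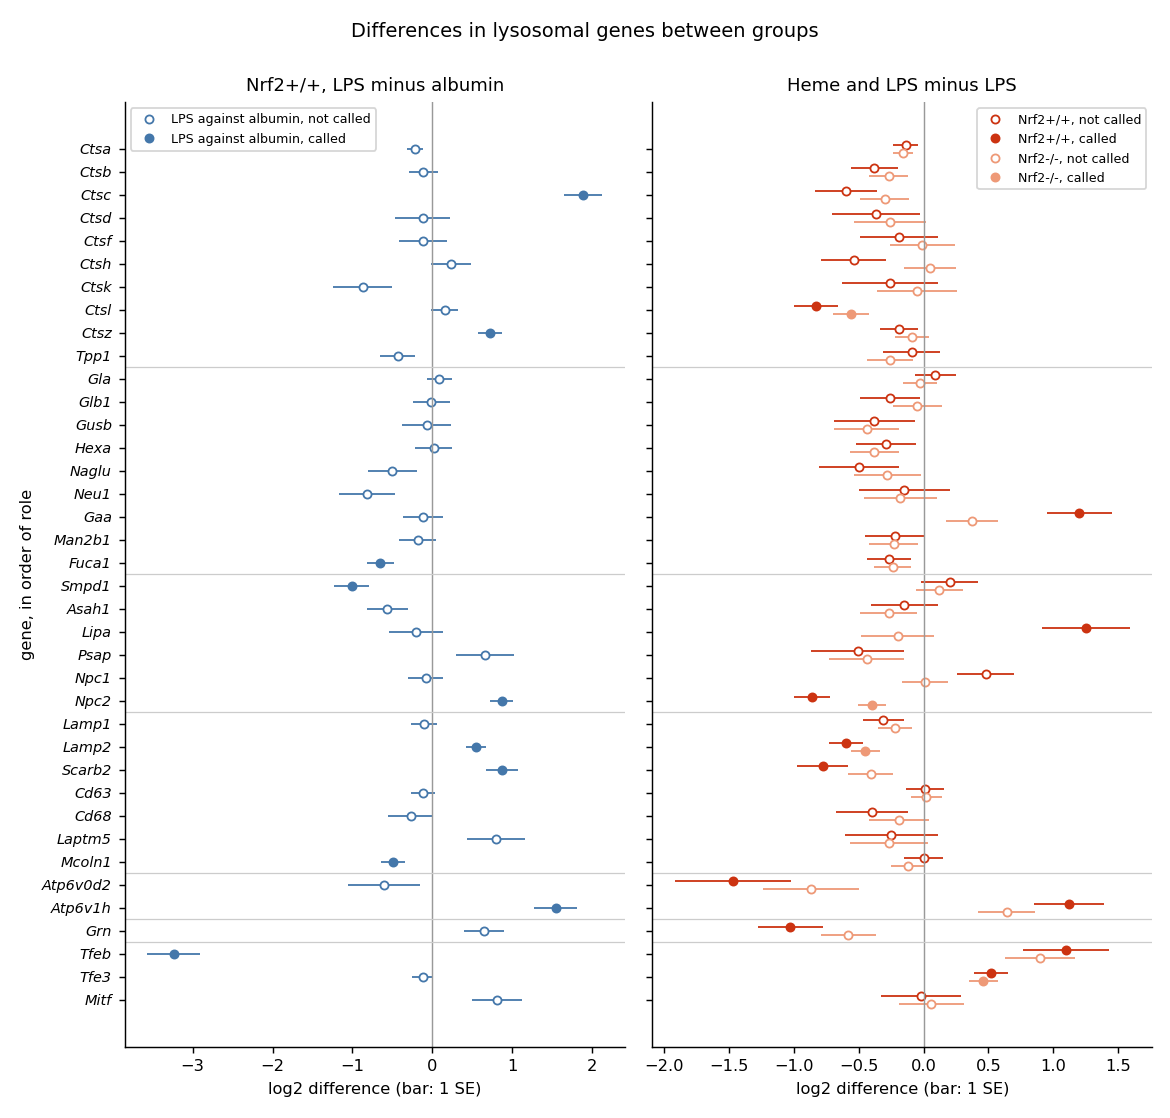
Differences of group means on the log2 scale (horizontal axis, bars 1 SE of the limma fit) for the 38 genes in order of role. The left panel shows LPS minus albumin in wild type, and the right panel heme and LPS minus LPS in wild type (dark) and the knockout (light). Filled points are called. Tfeb at -3.24 and Ctsc at 1.89 are the extremes on the left. Lipa and Gaa are called in wild type and not in the knockout. The difference between the heme effects of the genotypes was not called for either gene in the main fit.

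Of the TFE factors, Tfeb changed most. Its log2 ratio was 0.28, 0.24 and 0.34 on the 3 albumin arrays, -3.74, -2.65 and -2.47 under LPS and -2.50, -1.41 and -1.66 under heme and LPS in wild type. In the knockout it was -2.43, -2.60, -2.39 and -1.79 under LPS and -1.28, -0.97, -1.53, -1.61 and -1.63 under heme and LPS. The albumin arrays thus stood above every LPS-treated array, and the heme arrays of the knockout stood above all its LPS arrays, whereas in wild type heme array a, at -2.50, lay just below LPS array c, at -2.47. Tfeb fell with LPS by 3.24 ± 0.33 (SE, adjusted p = 5.91e-06), and by 3.24 with adjusted p = 0.00136 when albumin was 1 sample. Heme raised it in wild type by 1.1 ± 0.33 (SE, adjusted p = 0.0384), which left a difference from albumin of -2.15 ± 0.33. The heme call was lost without array b or c under heme and LPS, and without array a under LPS, where the rise was 0.70 (adjusted p = 0.176). In the knockout the heme difference was 0.90 ± 0.27 (SE, adjusted p = 0.0655), which was not called. It was called under 4 of the 8 other settings, and the difference between the genotypes' heme effects was -0.19 ± 0.43 (adjusted p = 0.99).

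Tfe3 moved less and under heme. It stood at -0.24, -0.20 and -0.21 under albumin, -0.55, -0.28 and -0.19 under LPS and -0.16, 0.40 and 0.29 under heme and LPS in wild type, and at -0.49, -0.57, -0.33 and -0.36 and 0.09, 0.08, 0.07, 0.03 and -0.18 in the knockout under LPS and under heme and LPS. Heme arrays were above the LPS arrays of their own genotype without overlap. The rise with heme was 0.52 ± 0.13 (SE, adjusted p = 0.0144) in wild type and 0.46 ± 0.11 (SE, adjusted p = 0.0196) in the knockout. The wild-type call was lost without array b or c under heme and LPS or array a under LPS, and the knockout call without array a or b under LPS. It was also lost in wild type after quantile normalization (0.42, adjusted p = 0.103), and with 1 probe per gene in wild type (0.42, adjusted p = 0.0813) and the knockout (0.41, adjusted p = 0.0634). With LPS alone Tfe3 differed from albumin by -0.12 ± 0.13, and its 2 probes differed there, at -0.49 and 0.25.

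Mitf was not called in any comparison. It stood at 0.39, 0.38 and 0.39 under albumin, at 0.70, 1.5 and 1.41 under LPS and 0.59, 1.36 and 1.6 under heme and LPS in wild type, and at 1.35, 1.73, 1.55 and 1.79 and 1.44, 1.0, 1.73, 1.87 and 2.28 in the knockout. Every LPS-treated array was above the albumin arrays. The difference of LPS from albumin, 0.81 ± 0.31 (SE, adjusted p = 0.0641), was called under 5 of 9 other settings, among them with the a arrays of all LPS-treated groups left out (1.06, adjusted p = 0.0164). Heme differed from LPS by -0.02 ± 0.31 in wild type and 0.06 ± 0.25 in the knockout.

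**Figure D4:**
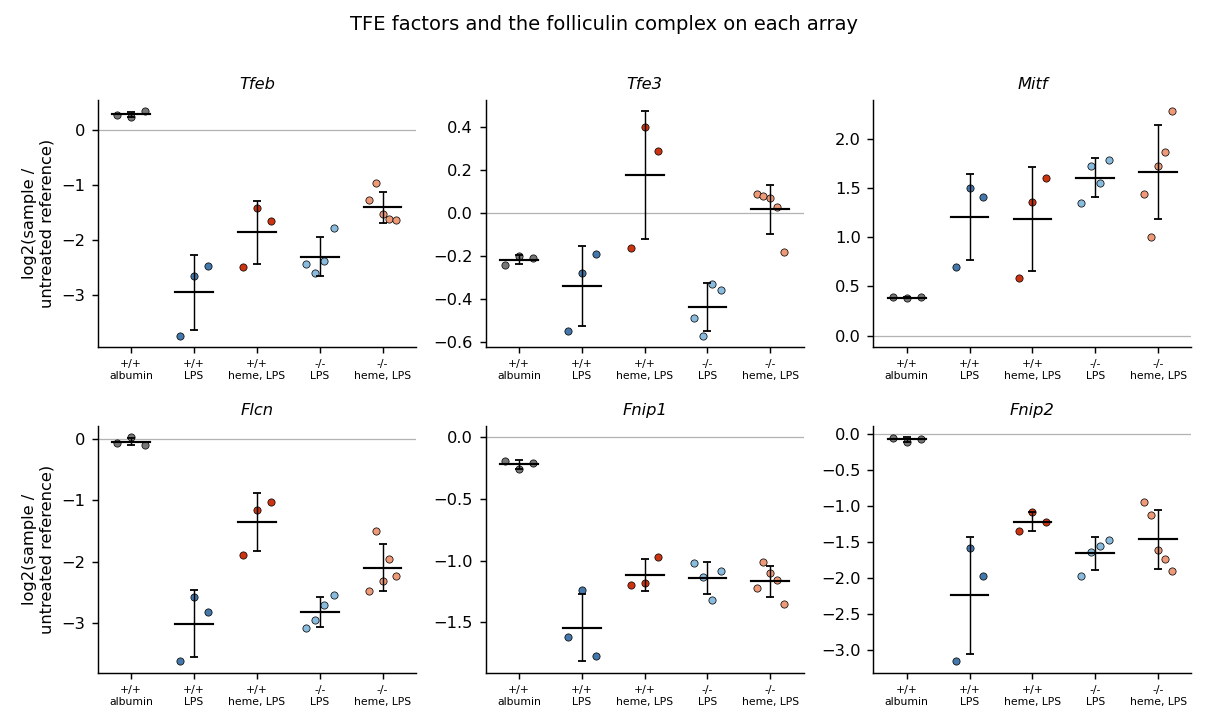
Log2 ratio to the untreated reference (vertical axes, each with its own range) of Tfeb, Tfe3, Mitf and the folliculin complex genes Flcn, Fnip1 and Fnip2 on each array, by group (horizontal axis). Points are arrays, bars the group mean with 1 SD. Tfeb and Flcn are high under albumin, lowest under LPS and between these under heme and LPS in wild type.

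The 2 subunits of the proton pump went in opposite directions with heme. Atp6v1h encodes a subunit of the cytosolic sector of the pump. It stood at -1.15, -1.03 and -1.12 under albumin, 0.66, 0.34 and 0.36 under LPS and 2.17, 1.14 and 1.39 under heme and LPS in wild type, so that the 3 groups formed steps without overlap. LPS raised it by 1.55 ± 0.27 (SE, adjusted p = 0.00049) and heme by a further 1.12 ± 0.27 (SE, adjusted p = 0.0099), to 2.67 ± 0.27 (6.34-fold) above albumin. The heme step was not called after quantile normalization or with the a arrays left out. In the knockout it was 0.29, 0.56, 0.33 and 0.10 under LPS and 1.09, 0.89, 1.5, 0.98 and 0.33 under heme and LPS, where array e reached into the range of the LPS arrays. The knockout difference, 0.64 ± 0.22 (SE, adjusted p = 0.109), was called only with the letter as a block or without array e under heme and LPS, among the settings run. Atp6v0d2 encodes a subunit of the membrane sector that is abundant in osteoclasts. It stood at -0.30, -0.15 and -0.11 under albumin, -1.23, -0.89 and -0.26 under LPS and -3.45, -1.48 and -1.87 under heme and LPS in wild type, with array a lowest by far. Knockout arrays gave -1.09, -1.49, -0.08 and -0.69 under LPS and -2.16, -1.36, -1.28, -1.95 and -1.79 under heme and LPS. In wild type heme lowered Atp6v0d2 by 1.47 ± 0.45 (SE, adjusted p = 0.0417), a call lost without array c under heme and LPS or array b or c under LPS. Without array a under heme and LPS the difference was -0.88 (adjusted p = 0.174), without the a arrays of all LPS-treated groups -1.1 (adjusted p = 0.122), and with 1 probe per gene -1.30 (adjusted p = 0.149). It was 2.08 ± 0.45 below albumin (4.22-fold), and the knockout difference with heme was -0.87 ± 0.37 (SE, adjusted p = 0.231).

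Of the 7 genes of membrane proteins and the channel, 2 rose with LPS and fell again with heme in wild type, as did 3.98% of all genes and 7.45% of the genes at 0 on no array. Over all 38 genes there were 3, with Npc2. Lamp2 encodes a glycoprotein of the lysosomal membrane that also serves chaperone-mediated autophagy. It stood at -0.29, -0.25 and -0.24 under albumin, 0.32, 0.24 and 0.30 under LPS and -0.71, -0.12 and -0.12 under heme and LPS in wild type, and at 0.54, 0.22, 0.34 and 0.50 and 0.02, -0.06, -0.09, 0.08 and -0.15 in the knockout. The heme arrays of either genotype lay below all its LPS arrays. Lamp2 rose by 0.55 ± 0.13 (SE, adjusted p = 0.00559) with LPS and fell by 0.60 ± 0.13 (SE, adjusted p = 0.00554) with heme in wild type and by 0.45 ± 0.11 (SE, adjusted p = 0.0219) in the knockout. With 1 probe per gene both heme calls were lost, at -0.44 in wild type (adjusted p = 0.0669) and -0.29 in the knockout (adjusted p = 0.217), and without the a arrays the wild-type difference was -0.39 (adjusted p = 0.0194). The knockout call was also lost with the letter as a block, without array e under heme and LPS and without array a or d under LPS. Scarb2, whose product LIMP-2 is a membrane protein and enzyme receptor of the lysosome, was at -0.61, -0.64 and -0.64 under albumin, 0.00, 0.30 and 0.42 under LPS and -1.09, -0.26 and -0.27 under heme and LPS, and at -0.03, 0.15, 0.28 and 0.17 and -0.52, -0.31, 0.10, -0.16 and -0.44 in the knockout. In wild type the groups did not overlap between LPS and either neighbour. Scarb2 rose by 0.87 ± 0.20 (SE, adjusted p = 0.0046) with LPS and fell by 0.78 ± 0.20 (SE, adjusted p = 0.0159) with heme. Its knockout difference was -0.41 ± 0.17 (SE, adjusted p = 0.204). The knockout difference was called with the a arrays of all LPS-treated groups left out (-0.40, adjusted p = 0.0479). The heme call in wild type was lost without array a under heme and LPS (-0.51, adjusted p = 0.0573) or array b or c under LPS. Neither rise with LPS was called with albumin as 1 sample, at adjusted p = 0.0917 for Lamp2 and 0.0858 for Scarb2. Both reversals rest on the same 3 wild-type LPS arrays, which enter the 2 comparisons with opposite sign.

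Mcoln1, which encodes the calcium channel TRPML1 of the lysosomal membrane, fell with LPS. It was -0.14, -0.16 and -0.14 under albumin, -0.85, -0.61 and -0.45 under LPS and -0.95, -0.38 and -0.56 under heme and LPS in wild type, and -0.62, -0.92, -0.46 and -0.71 and -0.98, -0.56, -0.71, -0.91 and -0.81 in the knockout. Every LPS-treated array was below the albumin arrays. The fall was 0.49 ± 0.15 (SE, adjusted p = 0.0275), was lost when any 1 albumin array or wild-type LPS array a or b was left out, and heme added 0.00 ± 0.15. Lamp1, Cd63, Cd68 and Laptm5 were not called in any comparison. Laptm5, a membrane protein of blood cells that controls receptor turnover, differed from albumin by 0.80 ± 0.36 under LPS (adjusted p = 0.12). Lamp1, with 4 E-boxes in its window, differed by -0.10 ± 0.16 with LPS and -0.31 ± 0.16 with heme.

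Among the 10 proteases LPS raised 2 and lowered none, and heme lowered 1 in each genotype, Ctsl. Of all genes 12.3% rose with LPS, and 6.35% (wild type) and 2.67% (knockout) fell with heme. Among the genes at 0 on no array these shares were 19.8%, 12% and 4.83%. Ctsc stood at -0.40, -0.38 and -0.37 under albumin, 2.12, 1.1 and 1.31 under LPS and 1.2, 0.86 and 0.68 under heme and LPS in wild type, and at 1.67, 1.46, 0.97 and 1.35 and 1.12, 1.13, 0.99, 1.31 and 0.75 in the knockout. All 15 LPS-treated arrays were above the albumin arrays. Ctsc rose by 1.89 ± 0.24 (SE, adjusted p = 3.56e-05) with LPS. It remained 1.30 ± 0.24 above albumin with heme, while its heme difference of -0.60 ± 0.24 was not called (adjusted p = 0.127). Ctsz, a carboxypeptidase, rose by 0.72 ± 0.15 (SE, adjusted p = 0.00248) with LPS.

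Ctsl encodes cathepsin L, an endopeptidase of the lysosome. It stood at -0.42, -0.35 and -0.40 under albumin, -0.26, -0.31 and -0.13 under LPS and -1.28, -0.80 and -1.12 under heme and LPS in wild type, and at -0.23, -0.21, -0.19 and -0.40 and -0.89, -0.38, -0.74, -0.80 and -1.27 in the knockout. Wild-type heme arrays were below all others of that genotype, while knockout array b under heme and LPS, at -0.38, was within the range of the knockout LPS arrays. Heme lowered Ctsl by 0.83 ± 0.17 (SE, adjusted p = 0.00348) in wild type and 0.56 ± 0.14 (SE, adjusted p = 0.0262) in the knockout. With the a arrays of all LPS-treated groups left out, the wild-type value missed the threshold (adjusted p = 0.063). The knockout call was lost without array d under heme and LPS or array a, b or c under LPS.

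Ctsk, the collagen-degrading cathepsin of osteoclasts, stood at 0.55, 0.60 and 0.61 under albumin, -0.99, 0.05 and 0.07 under LPS and -0.20, -0.90 and -0.53 under heme and LPS in wild type. The knockout arrays spread from -0.14 to 0.47 under LPS and from -0.84 to 0.94 under heme and LPS. Ctsk was 1.13 ± 0.37 (SE, adjusted p = 0.036) lower than albumin under heme and LPS, a call lost when any 1 albumin array or heme array b or c was left out. Under LPS it was lower by 0.87 ± 0.37 without being called (adjusted p = 0.0992). Ctsa, the protective protein of 2 glycosidases, was 0.37 ± 0.10 (SE, adjusted p = 0.0147) lower than albumin under heme and LPS, on every array of the group, and this was not called without heme array a. The other 5, Ctsb, Ctsd, Ctsf, Ctsh and Tpp1, were not called in any comparison. All 10 proteases had an estimate below 0 for heme in wild type, from -0.83 to -0.09. Of all genes 44.4% were below 0, and of the genes at 0 on no array 49%. Without the a arrays 9 of the 10 were below 0, from -0.78 to 0.08, where Tpp1 was above, and none was called. On wild-type arrays b and c Ctsd, the aspartic protease cathepsin D, stood at -0.74 and -0.75 under heme and LPS, against -0.68 and -0.61 under LPS. On the arrays lettered a it was at -2.0 under heme and LPS and at -1.08 under LPS.

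Of the 9 glycosidases 1 rose and none fell with heme in wild type, and 1 fell with LPS. Of all genes 8.34% were higher with heme and 16.3% lower with LPS, and of those at 0 on no array 15.7% and 29.1%. Gaa stood at -0.25, -0.30 and -0.34 under albumin, -0.66, -0.45 and -0.11 under LPS and 0.40, 1.17 and 0.80 under heme and LPS in wild type. In the knockout it stood at -0.57, -0.55, 0.43 and -0.31 and 0.20, 0.01, 0.12, 0.36 and -0.11. Of the other 15 arrays only knockout array c under LPS, at 0.43, reached the range of the wild-type heme arrays. Heme raised Gaa by 1.2 ± 0.25 (SE, adjusted p = 0.00372) in wild type, where its 2 probes gave 1.16 and 1.24, and the knockout difference was 0.37 ± 0.20 (SE, adjusted p = 0.404), where they gave 0.10 and 0.64. Read from the probe that was less often at 0 alone, Gaa was higher with heme in the knockout also, by 0.64 (adjusted p = 0.000159). Against albumin the probes differed more, at -0.64 and 0.42 for LPS.

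Fuca1, the fucosidase, stood at 0.21, 0.22 and 0.26 under albumin, -0.44, -0.43 and -0.37 under LPS and -0.57, -0.60 and -0.88 under heme and LPS in wild type, and at -0.09, -0.55, -0.39 and -0.89 and -0.68, -0.62, -0.57, -1.08 and -0.67 in the knockout. Every LPS-treated array was below the albumin arrays. It fell with LPS by 0.65 ± 0.17 (SE, adjusted p = 0.00921), with -1.17 and -0.12 for its 2 probes, and was 0.91 ± 0.17 (SE, adjusted p = 0.000941) below albumin under heme and LPS. Both calls were lost when the probe less often at 0 was read alone (adjusted p = 0.769 for LPS). Naglu, which degrades heparan sulfate, stood at 0.01, -0.00 and 0.03 under albumin, -0.88, -0.28 and -0.29 under LPS and -1.70, -0.67 and -0.58 under heme and LPS in wild type. Its knockout values were -0.81, -0.98, -0.36 and -0.52 and -1.64, -0.96, -0.42, -0.93 and -0.79. Naglu was 1.0 ± 0.31 (SE, adjusted p = 0.0275) lower than albumin under heme and LPS, and all heme arrays were below the albumin arrays. The call was lost when any 1 albumin array was left out, or heme array a, without which the difference was -0.64 (adjusted p = 0.128). Gla, Glb1, Gusb, Hexa, Neu1 and Man2b1 were not called in any comparison. Neu1, the sialidase that Ctsa protects, differed from albumin by -0.82 ± 0.35 (SE, adjusted p = 0.0979) with LPS and -0.97 ± 0.35 (SE, adjusted p = 0.0521) with heme and LPS.

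Among the genes of lipid breakdown and sterol export, Npc2 kept its heme call under all 8 other settings and all 6 fits without 1 array. Npc2 binds cholesterol in the lumen and hands it to the membrane protein NPC1. It stood at -0.49, -0.57 and -0.52 under albumin, 0.42, 0.34 and 0.27 under LPS and -0.65, -0.46 and -0.44 under heme and LPS in wild type, and at 0.43, -0.01, 0.21 and 0.32 and -0.06, -0.49, 0.12, -0.08 and -0.27 in the knockout. In wild type the LPS arrays were above all others, and the heme arrays lay near the albumin arrays. It rose by 0.87 ± 0.14 (SE, adjusted p = 0.000231) with LPS and fell by 0.86 ± 0.14 (SE, adjusted p = 0.000493) with heme, with 0.01 ± 0.14 between heme and LPS and albumin. The knockout fall was 0.40 ± 0.11 (SE, adjusted p = 0.0467), with overlap of the groups, and was called under 2 of 8 other settings, the letter as a block not among them. Npc1 itself was not called, at -0.08 ± 0.22 with LPS and 0.48 ± 0.22 with heme in wild type.

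Lipa, which hydrolyses cholesteryl esters and triglycerides, rose with heme in wild type and was the gene of the set with the largest difference between genotypes. It stood at -0.72, -0.91 and -0.66 under albumin, -1.36, -0.78 and -0.77 under LPS and -0.22, 0.39 and 0.65 under heme and LPS in wild type. In the knockout it stood at -1.38, -0.50, -0.69 and -0.95 and -1.62, -1.06, -0.16, -1.11 and -1.45. The wild-type heme arrays were above all other wild-type arrays, and among the knockout heme arrays only array c, at -0.16, reached their range. Heme raised Lipa by 1.25 ± 0.34 (SE, adjusted p = 0.0211) in wild type, while the knockout difference was -0.20 ± 0.28 (SE, adjusted p = 0.843). The wild-type heme call was lost without array b or c under heme and LPS or array a under LPS.

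Smpd1 fell with LPS. It stood at 0.11, 0.06 and 0.10 under albumin, -1.34, -0.76 and -0.66 under LPS and -1.21, -0.41 and -0.54 under heme and LPS in wild type, and at -1.15, -0.90, -0.82 and -0.94 and -1.21, -0.79, -0.51, -0.83 and -0.85 in the knockout. Every LPS-treated array was below the albumin arrays. The fall was 1.01 ± 0.22 (SE, adjusted p = 0.00254), and 0.0624 was its adjusted p with albumin as 1 sample. With heme the difference from LPS was 0.20 ± 0.22. Asah1, the acid ceramidase, and Psap, the precursor of the saposins that help lipid hydrolases, were not called. Psap was 0.66 ± 0.36 with LPS (adjusted p = 0.201), with all 3 LPS arrays above the albumin arrays.

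Grn encodes progranulin, a secreted and lysosomal protein whose loss impairs lysosomes. It stood at -0.88, -0.84 and -0.84 under albumin, -0.29, -0.13 and -0.20 under LPS and -1.84, -0.99 and -0.88 under heme and LPS in wild type, and at -0.37, -0.62, -0.21 and -0.18 and -1.27, -0.89, -0.32, -0.86 and -1.26 in the knockout. The wild-type LPS arrays were above all other wild-type arrays. Heme lowered Grn by 1.03 ± 0.25 (SE, adjusted p = 0.011) in wild type, against a knockout difference of -0.58 ± 0.21 (SE, adjusted p = 0.128). With the a arrays of all LPS-treated groups left out, the wild-type difference was -0.77 (adjusted p = 0.0743), and with only the 2 groups in the fit it was not called (adjusted p = 0.127). LPS against albumin gave 0.65 ± 0.25 (SE, adjusted p = 0.0682).

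**Figure D5:**
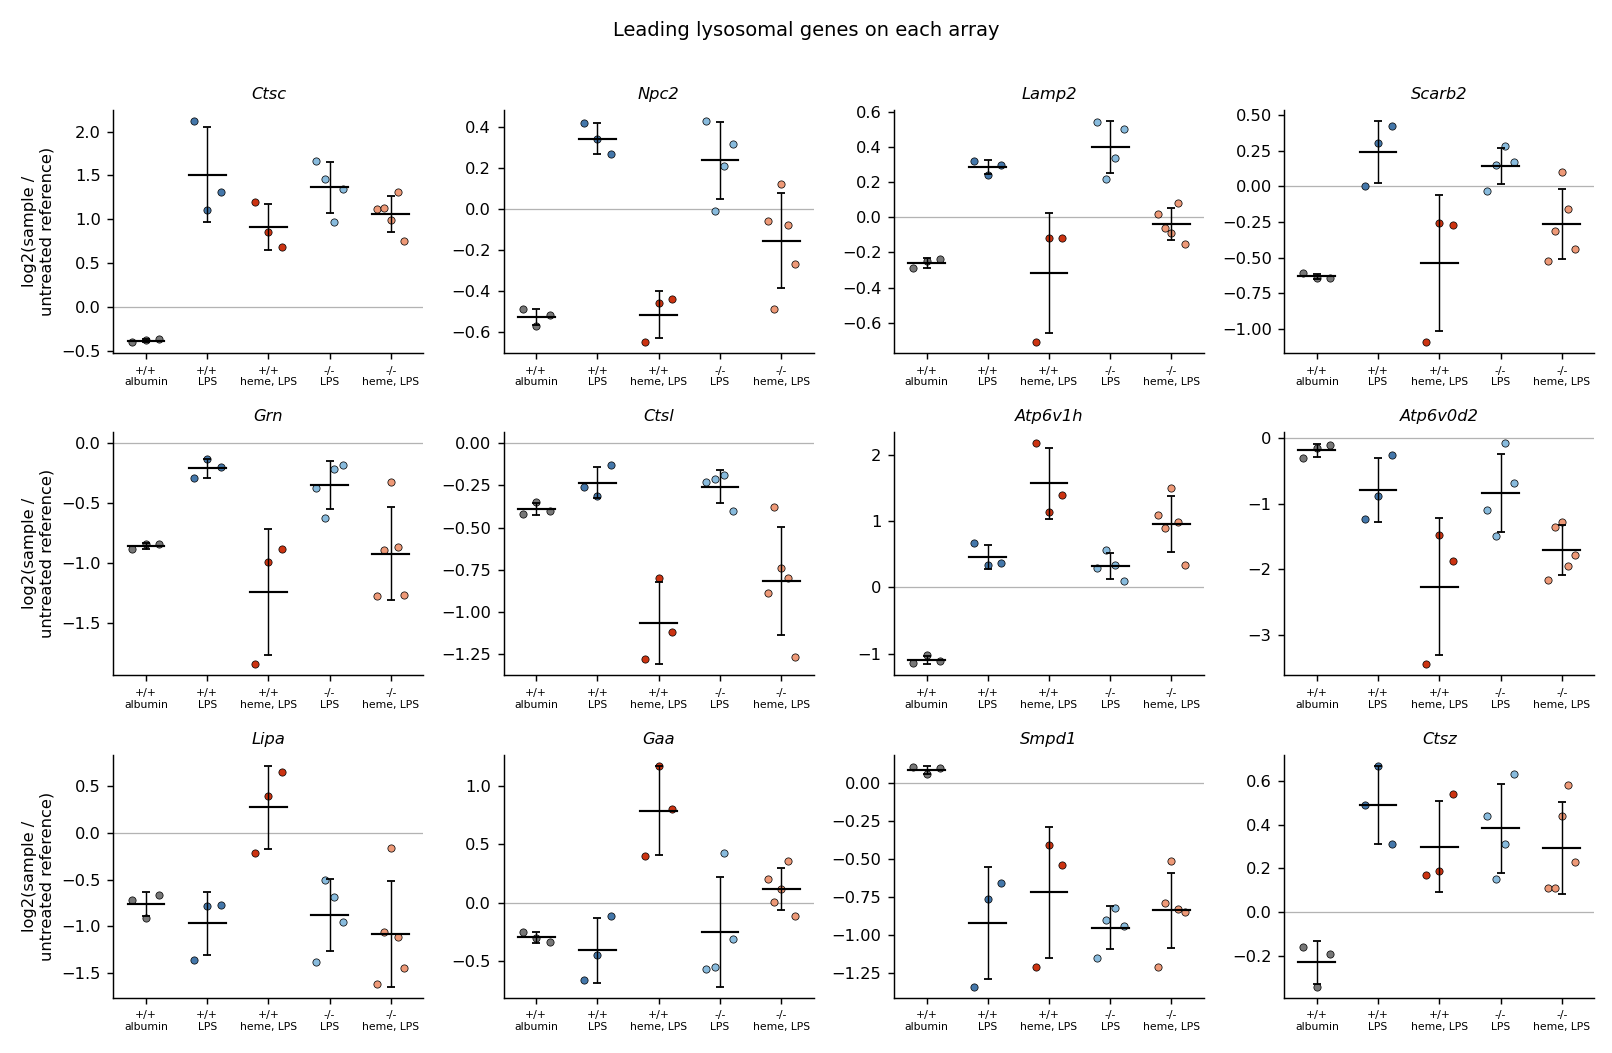
Log2 ratio to the untreated reference (vertical axes, each with its own range) of 12 genes on each array, by group (horizontal axis). Points are arrays, bars the group mean with 1 SD. Npc2, Lamp2 and Scarb2 are high under LPS in both genotypes and lower with heme, Atp6v1h rises in steps, and Lipa and Gaa are highest in wild type under heme and LPS.

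The interaction, which subtracts the wild-type heme effect from that of the knockout, asked whether heme acted differently without Nrf2. No gene of the set was called, against 0.240% of all genes higher and 0.707% lower in limma, and 3 of the 38 had an unadjusted p under 0.05, against 7.91% of all genes. The largest estimates were those of Lipa, -1.44 ± 0.44 (SE, adjusted p = 0.201), and Gaa, -0.83 ± 0.32 (SE, adjusted p = 0.428). Read from 1 probe, Gaa gave -0.60 (adjusted p = 0.0249), and without knockout array c under heme and LPS Lipa gave -1.68 (adjusted p = 0.0453). With the letter as a block the count was 0. The calls made in wild type and missing in the knockout are therefore not shown to differ between genotypes. The standard errors of the interaction, 0.13 to 0.59 over the set, set what could be seen.

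Knockout against wild type under LPS gave no call in the set, against 0.00% of all genes higher and 0.00445% lower, and none of the 38 had an unadjusted p under 0.05, against 2.48% of all genes. The largest difference was that of Tfeb, 0.65 ± 0.31, followed by Ctsk, 0.44 ± 0.35. Quantile normalization, the block and the other settings run also gave 0. Under heme and LPS 1 gene of the set differed, against 2.13% of all genes higher and 3.16% lower. Lipa was 1.35 ± 0.30 (SE, adjusted p = 0.016) lower in the knockout (2.56-fold). It was not called without wild-type array b or c under heme and LPS, or with only these 2 groups in the fit. Gaa, at -0.67 ± 0.22 (SE, adjusted p = 0.105), and Ctsh, at 0.66 ± 0.22 (SE, adjusted p = 0.111), came next and were not called, although the arrays of the 2 genotypes did not overlap in either. Read from 1 probe, Gaa was called (-0.50, adjusted p = 0.00159), as was Tfe3 with the a arrays left out (-0.34, adjusted p = 0.0476). Without knockout array b under heme and LPS 2 genes were called, Lipa and Npc2.

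Genes with and without CACGTG in the promoter window were then set side by side. Of the 10 with it 1 rose (Gaa) and 1 fell (Ctsl) with heme in wild type, with a median of -0.23, and of the 22 others with a window 3 rose and 4 fell, with a median of -0.26. With LPS 1 of the 10 fell (Mcoln1) and none rose, against 5 higher and 3 lower of the 22. The 22 include the 3 TFE factor genes themselves. Tfeb and Tfe3 are among the 3 that rose with heme, and Tfeb is among the 3 that fell with LPS. Of all genes 8.34% rose and 6.35% fell with heme, and 12.3% rose and 16.3% fell with LPS. Among the genes at 0 on no array these shares were 15.7% and 12%, and 19.8% and 29.1%. These counts describe the genes and were not tested.

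The set was then placed beside 96 other lysosomal, autophagy and nutrient sensing genes. With LPS 18 of the 96 rose and 25 fell, with heme in wild type 10 rose and 10 fell, and with heme in the knockout 2 rose and 5 fell. The shares of all genes were 12.3% and 16.3%, 8.34% and 6.35%, and 4.10% and 2.67%, and those of the genes at 0 on no array were 19.8% and 29.1%, 15.7% and 12%, and 7.92% and 4.83%. None was called in the interaction or between genotypes under LPS, and 3 were lower in the knockout under heme and LPS. In that last comparison 3.16% of all genes were lower, and 5.65% of those at 0 on no array. Of the 20 other hydrolases heme lowered 4 in wild type and raised none. Ctss, the cathepsin that processes the invariant chain of MHC class II, fell by 0.93 ± 0.16 (SE, adjusted p = 0.000856) in wild type and 0.75 ± 0.13 (SE, adjusted p = 0.00277) in the knockout. Lgmn, the asparagine endopeptidase that activates cathepsins, fell by 1.30 ± 0.38 (SE, adjusted p = 0.0303) in wild type, as did Sgsh, a heparan sulfatase, by 0.96 ± 0.22 (SE, adjusted p = 0.00688). Of the 15 other pump genes LPS raised 3 and lowered none, with Atp6v0a2 up by 1.86 ± 0.31 (SE, adjusted p = 0.000386). Heme lowered 1, Atp6v1d, by 0.88 ± 0.21 in wild type and 0.88 ± 0.17 in the knockout. Of 22 other membrane and sorting genes 7 rose and 6 fell with LPS, and 1 rose and 2 fell with heme in wild type. Sort1, the sorting receptor sortilin, rose with heme by 1.83 ± 0.46 (SE, adjusted p = 0.0127). Cd164, a sialomucin of endosomes and lysosomes, fell with heme by 1.5 ± 0.21 (SE, adjusted p = 0.000181) in wild type and 1.24 ± 0.17 (SE, adjusted p = 0.000554) in the knockout.

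Nutrient sensing genes included the folliculin complex, whose proteins act on the Rag GTPases at the lysosome and through them on TFEB and TFE3. Of 17 such genes LPS raised 2 and lowered 8, and heme in wild type raised 4 and lowered 2. The shares of all genes were 12.3% and 16.3% with LPS and 8.34% and 6.35% with heme. Among the genes at 0 on no array they were 19.8% and 29.1%, and 15.7% and 12%. Flcn, the folliculin gene, stood at -0.06, 0.03 and -0.09 under albumin, -3.63, -2.58 and -2.83 under LPS and -1.89, -1.15 and -1.02 under heme and LPS in wild type, and at -3.09, -2.95, -2.71 and -2.55 and -2.48, -1.5, -2.32, -1.96 and -2.23 in the knockout. With LPS it fell by 2.98 ± 0.30 (SE, adjusted p = 4.57e-06), and it rose with heme in wild type by 1.66 ± 0.30 (SE, adjusted p = 0.00131), as Tfeb did. Fnip2, a folliculin partner, fell by 2.17 ± 0.32 (SE, adjusted p = 0.000158) and rose by 1.03 ± 0.32 (SE, adjusted p = 0.047). Fnip1, the other partner, was named after its values were seen. It fell by 1.32 ± 0.12 (SE, adjusted p = 2.98e-06) and rose by 0.42 ± 0.12 (SE, adjusted p = 0.0339). Tsc1, a brake on mTORC1, fell by 1.47 ± 0.22 (SE, adjusted p = 0.00014) and rose by 0.96 ± 0.22 (SE, adjusted p = 0.00676). These falls and rises, like those of Tfeb, rest on the same wild-type LPS arrays, which enter both comparisons with opposite sign. The share of all genes with this pattern was not counted. In the knockout none of the 17 was called with heme, and Flcn differed by 0.72 ± 0.24 (SE, adjusted p = 0.102). The falls of Flcn, Fnip1, Fnip2 and Tsc1 kept their calls with albumin as 1 sample.

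Of 15 autophagy genes 5 rose and 1 fell with heme in wild type, and 2 rose and 1 fell in the knockout. The shares of all genes were 8.34% and 6.35% in wild type and 4.10% and 2.67% in the knockout. Among the genes at 0 on no array they were 15.7% and 12%, and 7.92% and 4.83%. Gabarapl1, which encodes an autophagosome protein of the ATG8 family, rose by 2.95 ± 0.29 (SE, adjusted p = 9.36e-06) in wild type and 2.59 ± 0.24 (SE, adjusted p = 2.97e-05) in the knockout. Sqstm1, whose product p62 binds ubiquitinated cargo and which is a known Nrf2 target, rose by 1.65 ± 0.28 (SE, adjusted p = 0.000919) and 1.07 ± 0.23 (SE, adjusted p = 0.0117). Ulk1, the kinase that starts autophagy, rose by 2.29 ± 0.41 (SE, adjusted p = 0.00142) in wild type, with 0.96 ± 0.34 (SE, adjusted p = 0.124) in the knockout. With LPS 3 of the 15 rose and 6 fell, against 12.3% and 16.3% of all genes and 19.8% and 29.1% of those at 0 on no array. Of 7 cathepsin inhibitor genes 1 rose with LPS and none was called with heme in either genotype. Several of these, Stfa1, Stfa2, Stfa3 and Stfa2l1, are closely related copies that array probes may not separate.

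Markers of macrophages and of cells that could accompany them were counted in the same way. Of all genes 12.3% were higher and 16.3% lower with LPS, 8.34% and 6.35% with heme in wild type, and 4.10% and 2.67% with heme in the knockout. Among the genes at 0 on no array, which many of these markers were not, the shares were 19.8% and 29.1%, 15.7% and 12%, and 7.92% and 4.83%. Of 8 macrophage genes 3 rose with LPS, and with heme in wild type 2 fell. Fcgr1, the high-affinity Fc receptor, fell by 5.38 ± 0.76 (SE, adjusted p = 0.000202), and Mertk, a receptor for dead cells, fell by 3.08 ± 0.80 (SE, adjusted p = 0.0168). In the knockout Fcgr1 fell by 2.44 ± 0.62 (SE, adjusted p = 0.0288), and Mertk differed by -2.14 ± 0.66 (SE, adjusted p = 0.0715). These markers were named after their values were seen, as was Dcstamp, a fusion gene of osteoclasts. Of 8 osteoclast genes 3 fell with LPS and 3 were lower than albumin under heme and LPS, beside Ctsk and Atp6v0d2, and with heme none was called in wild type and 1 rose in the knockout, Dcstamp, by 0.65 ± 0.18 (SE, adjusted p = 0.0464). Of 8 neutrophil genes 1 rose and 1 fell with LPS, and with heme 2 rose in wild type and 1 in the knockout. B cell genes gave 1 lower of 4 with LPS, T and NK cell genes 2 higher of 6, dendritic cell genes 1 higher of 6, mast cell genes 1 lower of 5 and erythroid genes 1 higher of 4. With heme none of these 5 lists had a call in either genotype. Stromal genes gave 1 higher of 6 with LPS, 1 higher and 1 lower with heme in wild type, and 1 higher in the knockout. Some of these changes rest on values at exactly 0, in genes also named after their values were seen. Klf1 and Ncr1, the largest erythroid and T and NK rises with LPS, were at 0 on 2 of 3 LPS arrays. Dcn, the largest stromal rise with LPS and fall with heme in wild type, was at 0 on all 3 albumin and all 3 wild-type heme arrays. In these bulk samples fewer cells of a type and less RNA per cell cannot be told apart, and the part of other cells in the results on the gene set was not tested.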

How the data were processed

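The series matrix holds 1 log ratio per probe and array. Per the labels' protocols, Cy5 carried the sample and Cy3 the untreated reference, and the submitters' processing notes name Agilent Feature Extraction 10.5.1.1. The deposited values have the form of its log10 ratio, a scale inferred from the values and not stated. They were multiplied by 3.322 to give log2 ratios. No dye swap is labelled. Between 17.9% and 48.8% of the deposited log10 values of an array were exactly 0, which can stand for a spot without a usable ratio. Of 44397 features 33026 had 1 gene symbol, none had several and 11371 had none. Probes of a gene were averaged, which gave 22485 genes, and no further normalization was applied.

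Group means were fitted over all 18 arrays with limma 3.58.1 in R 4.3.3, checked on simulated data, with Benjamini-Hochberg adjustment. The simulated arrays were independent, with the same spread of a gene in every group and no values at exactly 0. The check therefore does not cover the closeness of the albumin arrays, the zeros or arrays that deviate together. The labels call the replicates independent. Where they were not, the p-values measure technical spread. Array letters were taken as a block in an alternative. Same-lettered arrays paired by their deviations between genotypes under LPS (r = 0.58, 0.20 and 0.23) and under heme and LPS (0.53, 0.23 and 0.24). Between the knockout groups the letters gave 0.59, 0.23, 0.22 and 0.45, and between the wild-type groups 0.48, 0.01 and 0.01. In both genotypes heme array b was closer to LPS array c (0.36), and heme array c to LPS array b (0.32). Neither the main fit nor the letter block takes up such crossed pairs.

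Other alternatives were quantile normalization, median centring, zeros as missing, a filter on zeros, 1 probe per gene, leaving out arrays, and fitting only the groups compared. Values per array are given for up to 4 called members with the largest rise and 4 with the largest fall in each comparison, and for the TFE factors. Up to 3 genes in each direction are named from each other list. Members and lists were chosen with earlier results of these data known. Some genes of the other lists are not reported here.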

Additional observations from a re-analysis of the deposited data

Results flagged for a closer look

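In 76 sets of arrays, 1 for each gene in each of the knockout groups, the array farthest from the others was set against Dixon's limit, which chance passes in about 1 of 20 sets. It was passed in 4, all in the knockout under heme and LPS. Ctsa on array b was high at -0.36, with the others between -0.69 and -0.61. Ctsb on array a was low at -0.79, with the others between -0.47 and -0.35. Fuca1 on array d was low at -1.08, with the others between -0.68 and -0.57. Tfe3 on array e was low at -0.18, with the others between 0.03 and 0.09.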

How the results depend on the processing

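No difference of a called gene changed sign under any alternative run. For LPS against albumin 10 genes of the set were called, 16 after quantile normalization, 4 with the albumin arrays as 1 sample (chosen after seeing the data), and 9 to 10 without 1 array. For heme in wild type 11 were called, 7 without the LPS-treated arrays lettered a, 2 with only the groups compared, and 7 to 10 without 1 array. For heme and LPS against albumin 15 were called, 9 with only the groups compared, 4 with albumin as 1 sample, and 9 to 17 without 1 array. For heme in the knockout 4 were called, 2 with only the groups compared, and 0 to 5 without 1 array. The interaction had 0, with 1 when 1 probe per gene was read and 0 to 1 without 1 array. Between genotypes the count was 0 in every setting under LPS. Under heme and LPS it was 1, with 2 when 1 probe per gene was read, 2 without the arrays lettered a, 0 with only the groups compared, and 0 to 2 without 1 array. With the letter as a replicate block the counts were 14, 12, 19, 3, 0, 0 and 1, in the order of the comparisons in the report. Between the wild-type LPS groups with and without heme only letter a deviated together, at r = 0.48. Letters b and c gave 0.01 each, while crossed pairs gave 0.36 (heme array b with LPS array c) and 0.32 (heme array c with LPS array b). The ratios carry no signal over background, so genes near background could not be told from measured ones beyond the zeros.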
